A study of Mus musculus with 13 samples.

Results

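The subject is a set of blood protein genes that are made mainly in the liver, namely the complement factors and the coagulation factors with their inhibitors and plasminogen. The set is a list of 37 genes chosen by name, 17 of complement and 20 of coagulation. Of these, 34 could be measured among 18193 genes, 15 of complement and 19 of coagulation. C3 and Cpb2 had no probe set under their names, and C4b had only a probe set shared with C4a, so these 3 were not analysed here. The mRNA came from liver tumours of mir-122 knockout mice and from livers of wild type mice of the same background strain, B6/129. The microRNA mir-122 is abundant in hepatocytes. The 11-month group held 3 tumours and 2 livers of controls, the 14-month group 5 and 3, and each sample was read on 1 Affymetrix array. Tumours and controls differ both in genotype and in being tumour, and these cannot be told apart here, since no knockout liver outside a tumour was among the arrays. The labels do not say how the knockout was made or in which cells, nor whether the tumours came from separate animals, so p-values measure only the spread between these samples. Values are log2 levels after robust multi-array analysis (RMA), so a difference of 1 is a 2-fold change, and a level is compared only with the same gene in other arrays.

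Complement is a chain of plasma proteases and binding proteins that marks and lyses microbes. It is started by antibody through the classical pathway, by sugar-binding lectins with their proteases, or by the alternative pathway, and all routes end in the terminal proteins, which assemble into a pore in the target membrane. Coagulation is a second protease chain: the contact factors and the vitamin K dependent factors lead to thrombin, which turns fibrinogen into a clot, while serpin inhibitors hold the proteases in check and plasmin dissolves the clot. Hepatocytes are the main source of nearly all of these proteins.

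In the tumours 15 of the 34 complement and coagulation genes fell and 0 rose at an adjusted p under 0.05, with the ages weighted equally (limma, Benjamini-Hochberg over all genes), and 19 did not pass the test. The largest falls were those of the terminal complement genes C8a, C8b and C6 and of the contact factor genes Klkb1 and F11, while the log2 fold changes of the fibrinogen genes Fga and Fgb were among the smallest. Over all genes 9.81% were lower and 10.3% higher by the same rule. Of the 15 genes, 7 were of complement and 8 of coagulation. A fall of at least 2-fold was found for 7 genes, C8a, C8b, Klkb1, C6, F11, F9 and C9, against 2.06% of all genes. Their log2 fold changes had a median of -0.58 over the 34 genes, -0.78 for complement and -0.41 for coagulation, against -0.05 over all genes. At an unadjusted p under 0.05, 26 of the 34 were lower and 0 higher, against 19.8% and 16.6% of all genes.

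All 8 tumours lay below all 5 controls for 16 of the 34 genes, 6 of complement and 10 of coagulation, against 5.07% of all genes. For 0 of the 34 did all tumours lie above all controls, against 6.22% of all genes. Of the 15 calls, 10 held with each array left out in turn. The calls of C8a, F7 and Klkb1 were lost without either of the 11-month controls. That of C1ra was lost without either of them or without 14-month control 3, and that of Serpind1 without any of the 5 controls or without 11-month tumour 3. A pair of control arrays, 11-month control 1 and 14-month control 3, were nearly identical, with 15 genes more than 2-fold apart against 173 to 531 for every other pair of controls. The labels place them at different ages. The title of 14-month control 3 carries no number, while that of 11-month control 1 does. Whether they hold RNA of separate animals is not settled by the values or the titles. They are counted as 2 of the 5 controls, so the SDs and p-values may overstate the number of independent controls. Without both of them 4 of the 15 calls remained, those of C6, C9, Hc and F9. That fit held only 1 control at 11 months and 2 at 14 months. In it the log2 fold changes of genes that lost their calls stayed near those of the main fit. They were -4.66 against -4.60 for C8a, -2.79 against -2.70 for Klkb1 and -1.88 against -2.01 for F11. Without 14-month tumour 4 the count of calls was 22, with 11 of each kind. The share of all genes called with arrays left out was not computed. A change in these counts is thus not shown to be particular to the 34 genes.

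**Figure D1:**
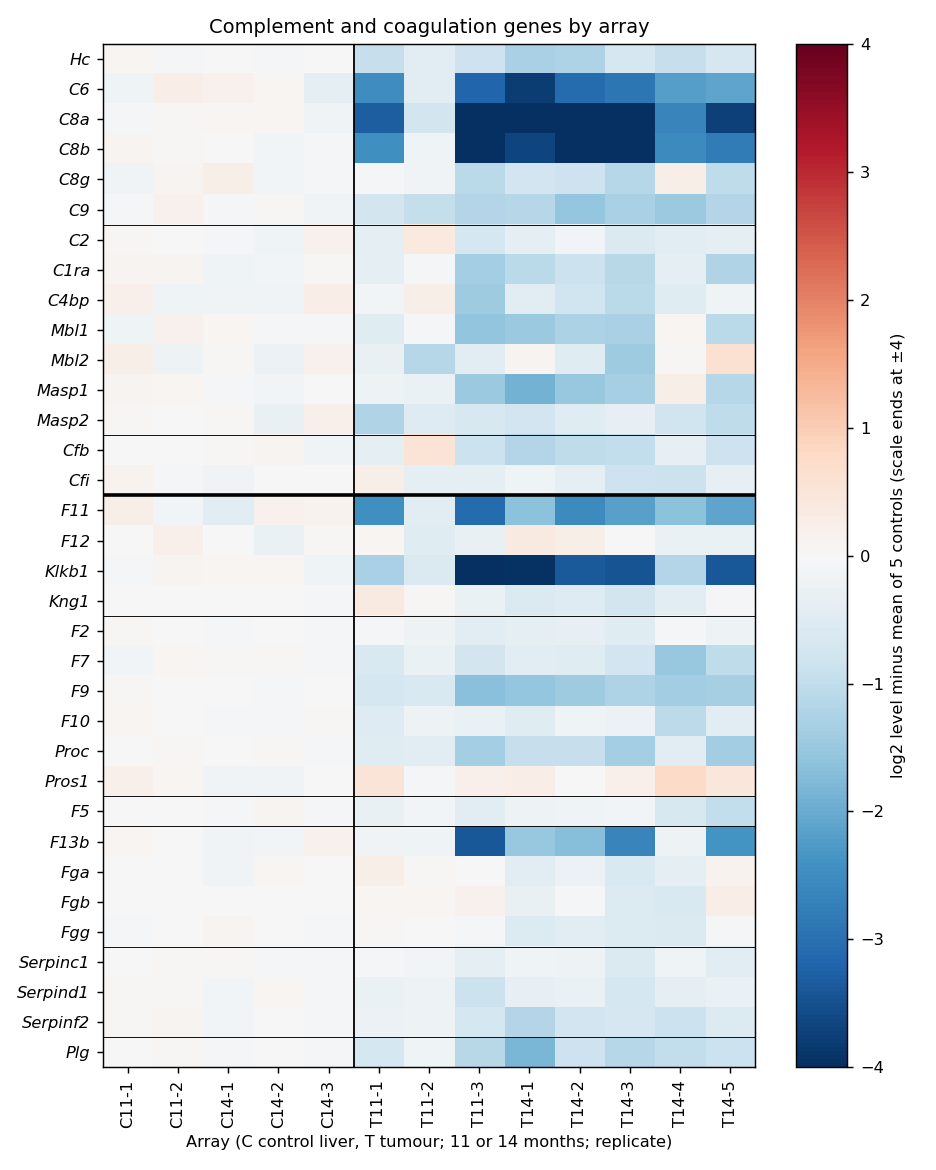
Log2 level of each of the 34 genes in each of the 13 arrays, minus the mean of the 5 controls, with complement genes above the thick line, coagulation genes below it, and thin lines between roles; colours end at 4 log2 units either way. C8a, C8b, C6, F11 and Klkb1 are blue in most tumours, darkest for C8a and less dark for F11. In contrast, 11-month tumour 2 is pale over most rows and the fibrinogen rows are pale in every array.

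Of the 6 terminal complement genes measured, 5 fell, with a median log2 fold change of -1.79 over the 6 and values from -4.60 for C8a to -0.56 for C8g, which did not pass. C8a encodes the alpha chain of C8, which inserts into the target membrane. Its 5 control levels were 12.78 and 12.88 at 11 months and 12.90, 12.92 and 12.70 at 14 months. In the tumours it was 9.53, 12.09 and 5.05 at 11 months and 5.04, 6.74, 6.83, 10.18 and 9.10 at 14 months. Every tumour was thus below every control, but the tumours covered 7.05 log2 units and 11-month tumour 2 stood close to the controls, while the lowest values came down to about the median of the arrays, 5.127 to 5.218. C8a fell 24.3-fold (log2 fold change -4.60 ± 1.13 (SE), adjusted p = 0.0166).

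C8b encodes the beta chain of the same protein and is the next protein-coding gene to C8a on chromosome 4. Control values were 11.51 and 11.45 at 11 months and 11.39, 11.27 and 11.35 at 14 months. Tumour values were 8.94, 11.21 and 6.10 at 11 months and 7.72, 6.84, 6.95, 8.84 and 8.61 at 14 months. The groups did not overlap, though 11-month tumour 2 was only just under the lowest control. The fall was 8.80-fold (log2 fold change -3.14 ± 0.71, adjusted p = 0.0113). C8g, which encodes the gamma chain, a lipocalin that is not needed for the pore, gave another picture: it averaged 12.80 ± 0.17 (SD, n = 5) in controls and 12.20 ± 0.53 (SD, n = 8) in tumours and did not pass the test (log2 fold change -0.56 ± 0.25, adjusted p = 0.129). Its 3 highest tumours, 11-month tumours 1 and 2 and 14-month tumour 4, lay within the range of the controls, and without 14-month tumour 4 the gene passed the test.

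C6 encodes the protein that joins the growing pore after C5b. Controls gave 10.97 and 11.41 at 11 months and 11.32, 11.21 and 10.79 at 14 months. The 11-month tumours gave 8.65, 10.68 and 7.98, and the 14-month tumours 7.33, 8.07, 8.25, 8.95 and 9.03. All tumours were lower than all controls, with 11-month tumour 2 again the nearest. C6 fell 5.40-fold (log2 fold change -2.43 ± 0.44, adjusted p = 0.00374).

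C9, whose protein forms the wall of the pore, fell less but far more evenly. Its controls were 12.82, 13.02, 12.81, 12.90 and 12.72, the 11-month tumours 12.12, 11.91 and 11.68, and the 14-month tumours 11.70, 11.30, 11.55, 11.38 and 11.69. A gap separated every tumour from every control, and 11-month tumour 2 did not stand out. The fall was 2.23-fold (log2 fold change -1.15 ± 0.11, adjusted p = 9.98e-05), the smallest adjusted p among the 34 genes. Hc, the mouse gene for C5, from which the pore assembly starts, fell 1.80-fold from 13.16 ± 0.05 in controls to 12.29 ± 0.30 in tumours (adjusted p = 0.00237). Every tumour, from 11.85 to 12.73, was under the lowest control at 13.12.

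**Figure D2:**
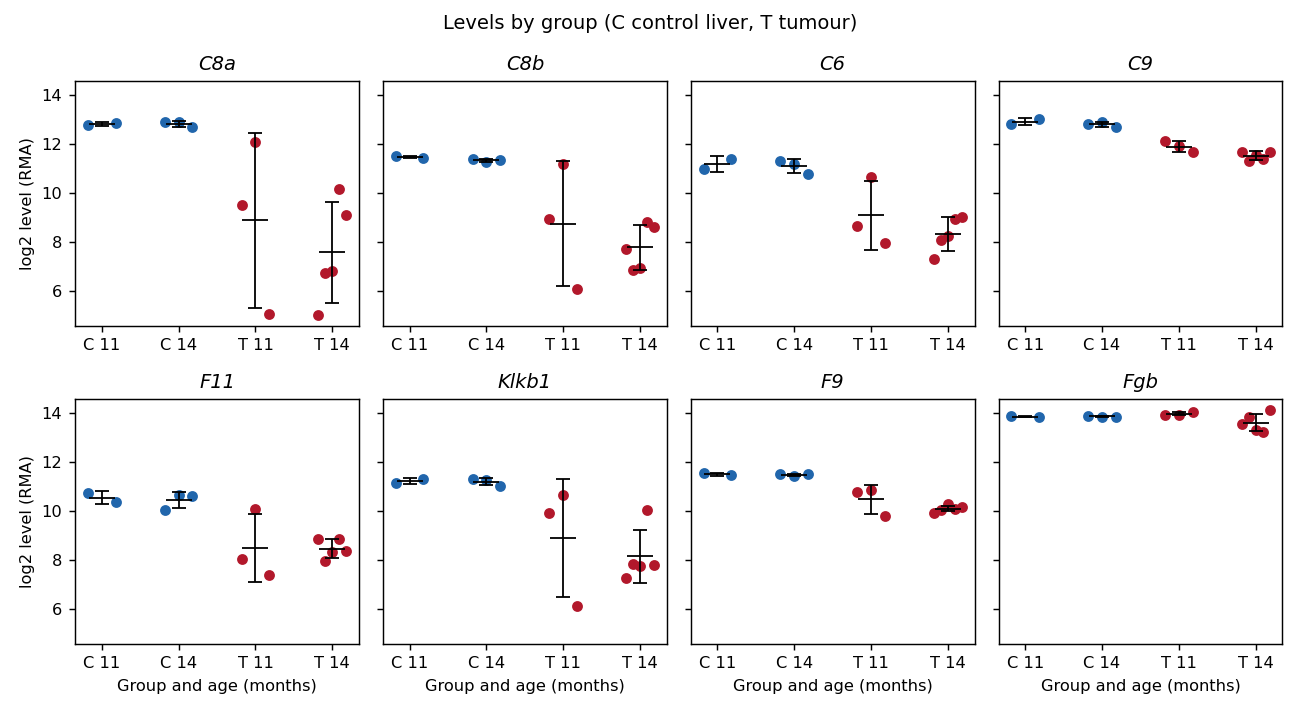
Log2 RMA level of 8 genes in the 4 groups (C control liver, T tumour, 11 or 14 months); each point is an array, and bars give the mean and SD of a group. C8a, C8b, C6, F11 and Klkb1 spread widely among tumours, C9 and F9 are lower with little spread, and Fgb overlaps the controls.

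In the classical and lectin pathways 2 of 7 measured genes fell, C1ra and Masp2. C1ra encodes the protease C1r of the first complement component. It averaged 10.59 ± 0.13 in controls and 9.78 ± 0.47 in tumours, a 1.72-fold fall (adjusted p = 0.0242), with 11-month tumour 2 inside the control range and the other 7 tumours below it. Masp2 encodes the lectin pathway protease that cuts C4 and C2, and fell 1.66-fold from 10.61 ± 0.18 to 9.89 ± 0.29 (adjusted p = 0.00808), with all tumours, at 10.28 or less, below the lowest control, 10.32. A second Masp2 probe set of lower level gave 8.15 ± 0.71 and 8.24 ± 0.36 and no call (adjusted p = 0.916).

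The mannose-binding lectin genes Mbl1 and Mbl2 did not pass the test. Mbl1 averaged 11.17 ± 0.12 in controls and 10.27 ± 0.65 in tumours (adjusted p = 0.0641). Of the tumours, 6 were below all controls, and 11-month tumour 2 at 11.11 and 14-month tumour 4 at 11.26 were at control level; without either of these Mbl1 passed. Mbl2 averaged 12.21 ± 0.21 and 11.84 ± 0.67 (adjusted p = 0.333), with 14-month tumour 5 above all controls at 12.82 and 14-month tumour 3 lowest at 10.78. C2, which supplies the protease of the classical convertase, gave 10.05 ± 0.13 and 9.72 ± 0.34 (adjusted p = 0.202). C4bp, which encodes an inhibitor of that convertase, gave 12.46 ± 0.21 and 11.93 ± 0.54 (adjusted p = 0.180). In 11-month tumour 2 both genes were higher than in the other tumours, C2 at 10.45 and C4bp at 12.70.

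Masp1 had probe sets that moved in opposite directions. By alternative splicing it encodes the lectin pathway protease MASP-1, the related protease MASP-3, and a shorter protein without protease activity, and no source used here says which transcript each probe set reads. The probe set with the highest level, 1419677_at, read 10.52, 10.50, 10.32, 10.31 and 10.41 in the controls. In the tumours it read 10.21, 10.14 and 8.93 at 11 months and 8.51, 8.89, 9.07, 10.64 and 9.27 at 14 months. Thus 7 of 8 tumours were below all controls and 14-month tumour 4 was above them, and the difference missed the threshold (log2 fold change -0.91 ± 0.34, adjusted p = 0.0771).

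The other 4 Masp1 probe sets rose, tested with all probe sets that name 1 gene in 1 fit, where 8.50% of probe sets were lower and 8.86% higher. 1425985_s_at went from 8.44 ± 0.14 in controls to 9.70 ± 0.37 in tumours (log2 fold change 1.25 ± 0.18, adjusted p = 0.00137). 1438602_s_at went from 8.27 ± 0.22 to 9.46 ± 0.23 (1.18 ± 0.14, adjusted p = 0.000409), and 1438603_x_at from 5.91 ± 0.14 to 7.12 ± 0.34 (1.20 ± 0.17, adjusted p = 0.00139). For each of these 3 all 8 tumours lay above all 5 controls, and the calls held with each array left out and without both nearly identical controls. 1455346_at, at 4.75 ± 0.41 and 5.78 ± 0.63, had 6 of 8 tumours above all controls (1.04 ± 0.32, adjusted p = 0.0438) and lost its call with 10 of the 13 arrays left out in turn and without that pair (adjusted p = 0.28). The mean of the 5 probe sets rose by 0.75 (adjusted p = 0.0171), so the direction given for Masp1 depends on the probe set. Masp1 was singled out in this way after its values were seen.

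**Figure D3:**
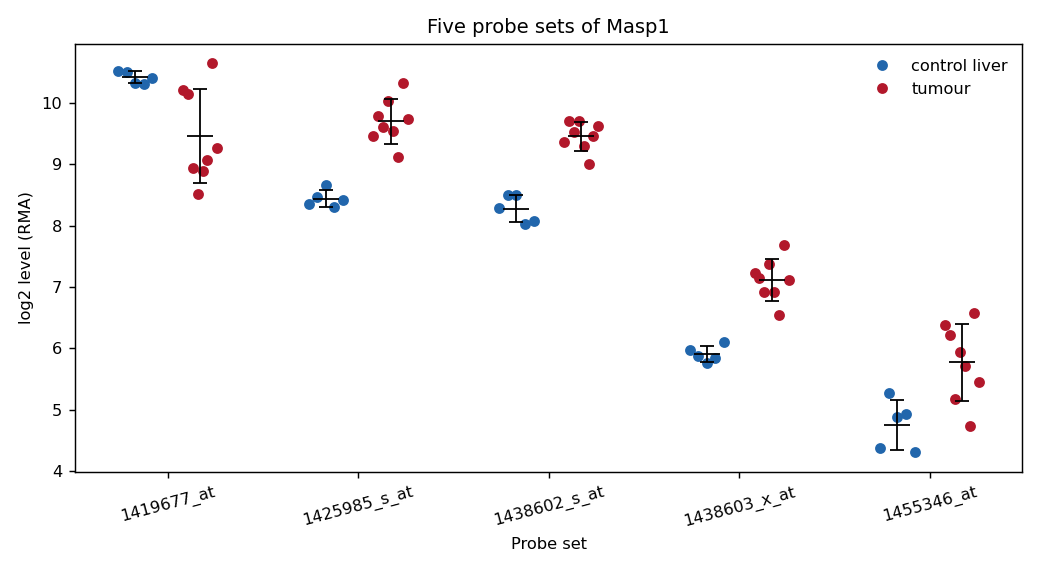
Log2 RMA level of the 5 probe sets of Masp1; each point is an array, blue for the 5 control livers and red for the 8 tumours, with the mean and SD, and levels are not comparable between probe sets. 1419677_at is lower in 7 of 8 tumours, while 1425985_s_at, 1438602_s_at and 1438603_x_at are higher in all 8.

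Neither of the 2 measured genes of the alternative pathway passed the test. Cfb, which encodes the protease of the alternative convertase and lies next to C2 on chromosome 17, averaged 12.14 ± 0.10 in controls and 11.51 ± 0.56 in tumours (adjusted p = 0.0937). Of the tumours, 7 were below all controls, while 11-month tumour 2, at 12.68, was above them as it was for C2; without this tumour, or without 14-month tumour 4, Cfb passed. Cfi, the protease that inactivates C3b and C4b, averaged 13.25 ± 0.11 and 12.87 ± 0.35 (adjusted p = 0.126), with 11-month tumour 1 above all controls and the other 7 tumours below them.

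Among the contact factors, which start the intrinsic pathway, F11 and Klkb1 fell while F12 and Kng1 did not pass the test. F11 encodes factor XI, and its controls read 10.74 and 10.38 at 11 months and 10.07, 10.65 and 10.62 at 14 months. Its tumours read 8.04, 10.08 and 7.40 at 11 months and 8.86, 7.96, 8.33, 8.86 and 8.37 at 14 months. The groups met at 1 point: 11-month tumour 2 was at the level of the lowest control, and the other 7 tumours were well below. F11 fell 4.03-fold (log2 fold change -2.01 ± 0.38, adjusted p = 0.00514).

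Klkb1, which encodes plasma prekallikrein and neighbours F11 on chromosome 8, had controls at 11.14, 11.34, 11.31, 11.29 and 11.04. The 11-month tumours were at 9.92, 10.65 and 6.15 and the 14-month tumours at 7.28, 7.86, 7.78, 10.04 and 7.82. No tumour reached the controls, but 3 tumours, 11-month tumours 1 and 2 and 14-month tumour 4, were far above the other 5. The fall was 6.48-fold (log2 fold change -2.70 ± 0.71, adjusted p = 0.0219).

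F12, for factor XII, read 11.36 ± 0.18 in controls and 11.28 ± 0.29 in tumours (adjusted p = 0.499), with 2 tumours below and 2 above all controls. Kng1, for high molecular weight kininogen and the source of bradykinin, read 13.11 ± 0.02 and 12.84 ± 0.37 (adjusted p = 0.285). A second Kng1 probe set read 12.30 ± 0.07 and 11.40 ± 0.57 and passed in the fit over all probe sets (log2 fold change -0.84 ± 0.24, adjusted p = 0.0343). That call was lost with 9 of the 13 arrays left out in turn, and without both nearly identical controls (adjusted p = 0.165).

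Of the 6 vitamin K dependent genes 3 fell, and this group held the only gene of the 34 with a log2 fold change above 0. F9 encodes factor IX, whose loss causes haemophilia B. Its controls were 11.56 and 11.48 at 11 months and 11.52, 11.43 and 11.51 at 14 months. Tumours were 10.79, 10.89 and 9.82 at 11 months and 9.95, 10.07, 10.28, 10.11 and 10.16 at 14 months. All tumours were clearly below the controls, and the 5 tumours at 14 months lay close together. F9 fell 2.29-fold (log2 fold change -1.20 ± 0.16, adjusted p = 0.000925).

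Proc, for the anticoagulant protein C, fell 1.84-fold from 12.44 ± 0.05 in controls to 11.53 ± 0.42 in tumours (adjusted p = 0.00986). F7, for the factor that starts the extrinsic pathway, fell 1.61-fold from 10.45 ± 0.09 to 9.72 ± 0.39 (adjusted p = 0.0193) and was lowest in 14-month tumour 4, at 8.93. For both genes every tumour was below every control. F10, the neighbour of F7 on chromosome 8, was also lowest in that tumour, at 10.86, and every tumour was below every control, but its 1.33-fold difference missed the threshold (adjusted p = 0.0596). The other 2 probe sets of F10, at lower levels, gave log2 fold changes of -0.06 ± 0.21 and 0.04 ± 0.21, with tumours on both sides of the controls. F2, for prothrombin, read 13.19 ± 0.04 and 12.91 ± 0.16, likewise without overlap and short of the threshold (adjusted p = 0.0602). Pros1, for protein S, which other cells than hepatocytes also make, read 8.62 ± 0.14 in controls and 8.92 ± 0.28 in tumours (log2 fold change 0.26 ± 0.14, adjusted p = 0.207), with 6 of 8 tumours above all controls.

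Among the genes of the clot itself, none of the 3 fibrinogen genes passed the test with the ages combined, although at 14 months Fgg fell by 0.45 ± 0.12 (adjusted p = 0.0282). Fgb, for the beta chain, read 13.89, 13.85, 13.90, 13.86 and 13.87 in controls. In tumours it read 13.95, 13.95 and 14.06 at 11 months and 13.58, 13.84, 13.33, 13.26 and 14.13 at 14 months. The tumours lay on both sides of the controls, 4 above and 4 below. The log2 fold change was -0.07 ± 0.14 (adjusted p = 0.754), and 0.01 with quantile normalisation repeated. Fga, for the alpha chain, gave -0.11 ± 0.12 (adjusted p = 0.529) and Fgg, for the gamma chain, -0.21 ± 0.09 (adjusted p = 0.123). These 3 genes, which are neighbours on chromosome 3, had control means of 13.85 to 14.06, near the highest value on each array, 14.581 to 14.839, where an array can understate a change.

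F13b, for the carrier subunit of the factor that cross-links fibrin, stood apart from fibrinogen by the spread of its tumours. It read 11.45, 11.37, 11.21, 11.27 and 11.53 in controls. The 11-month tumours read 11.22, 11.19 and 7.96, and the 14-month tumours 9.85, 9.67, 8.71, 11.17 and 8.98. Thus 3 tumours were at or just under the lowest control and 5 were far below, and these 3 were the tumours with the highest Klkb1. The 2.78-fold difference did not pass (log2 fold change -1.48 ± 0.57, adjusted p = 0.0881); it passed without 14-month tumour 4.

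F5, for the cofactor factor V, read 11.81 ± 0.07 and 11.45 ± 0.30, with every tumour below every control and an adjusted p of 0.118. Of the 3 serpins, Serpinf2, for the plasmin inhibitor alpha-2-antiplasmin, fell 1.53-fold from 12.38 ± 0.08 to 11.73 ± 0.32 (adjusted p = 0.00632), and Serpind1, for heparin cofactor II, fell 1.34-fold from 12.24 ± 0.08 to 11.83 ± 0.24 (adjusted p = 0.0351). Every tumour was below every control for both. Serpinc1, for antithrombin, read 13.76 ± 0.04 and 13.50 ± 0.18 (adjusted p = 0.0843). Plg, for plasminogen, the precursor of plasmin, fell 1.87-fold from 13.67 ± 0.05 to 12.72 ± 0.46 (adjusted p = 0.00847), again with no overlap.

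**Figure D4:**
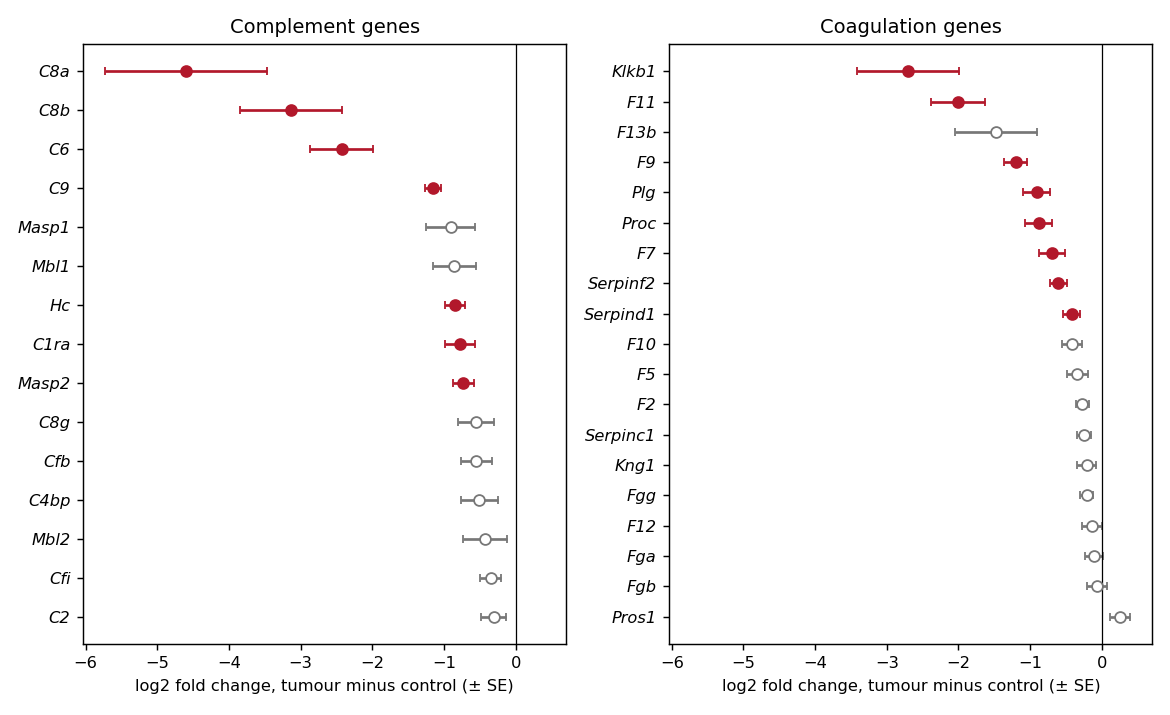
Log2 fold change of tumours over controls, ages weighted equally, with its standard error, for the 15 complement genes (left) and the 19 coagulation genes (right); filled red points passed an adjusted p under 0.05. The values run from -4.60 for C8a to 0.26 for Pros1, and every filled point lies below 0.

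The tumours differed in how many of these genes lay below all controls. Of the 34 genes, 11-month tumour 1 had 23 below all controls, 11-month tumour 2 had 22 and 11-month tumour 3 had 30. At 14 months the 5 tumours had 31, 31, 32, 28 and 27. Above all controls lay 5, 4 and 2 genes in the 11-month tumours and 2, 1, 1, 2 and 4 in the 14-month tumours. The shares of all genes below or above all controls in a single tumour were not computed. These counts are thus not shown to be particular to the 34 genes. The median difference from the control mean was smallest in 11-month tumour 2, at -0.20, and this tumour was the highest of the 8 for 17 genes, 8 of complement and 9 of coagulation. It had 1 gene at least 1 log2 unit below the mean of the controls, Mbl2, at 11.06. By that measure 11-month tumour 3 and 14-month tumours 1 and 5 had 15 each, and 14-month tumour 3 had 16. In 14-month tumour 4 the pattern was mixed: C8g, Mbl1 and Masp1 by its main probe set were the highest of all tumours, while F7, F10, Cfi, Fgb and Fgg were the lowest.

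At 11 months alone 1 of the 34 genes fell, C9 (log2 fold change -1.02 ± 0.16, adjusted p = 0.0169), and 0 rose, against 0.61% of all genes lower and 1.31% higher. The median over the 34 was -0.50, and 12 were lower at an unadjusted p under 0.05, against 8.54% of all genes. The C9 call was lost without either 11-month control or without 11-month tumour 3, and the count was 2 without 11-month tumour 1 and 6 without 11-month tumour 2. At 14 months 15 genes fell and 0 rose, against 6.88% of all genes lower and 8.37% higher, with a median of -0.74. These were the 15 named above with Fgg in place of Serpind1. With 14-month control 1, 2 or 3 left out the count was 5, 5 and 6, and with 14-month tumour 1 or 2 left out it was 10 and 9. For fits with an array left out the share of all genes was not computed.

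The test of the difference between the effects at the 2 ages called 0 of the 34 genes, and 0.0% of all genes. At an unadjusted p under 0.05 it named 1 of the 34, Fgg, lower at 14 months, where 1.63% of all genes were lower and 1.36% higher, so this count is no more than the background. Tumours at 14 months against tumours at 11 months gave 0 calls among the 34 and 0.0055% among all genes. At an unadjusted p under 0.05, 6 were lower at 14 months, Fgg, Kng1, C9, Serpinf2, Fga and Cfb, against 2.51% of all genes lower and 3.75% higher; over the 34 genes the adjusted p was 0.739 or more. An effect called at one age and not at the other is therefore not shown to differ between the ages.

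The promoters of 4 members were set beside each other: C8a and C8b, the neighbours with the largest falls, and Fga and Fgb, the neighbours with small differences. Each is the 250 bases before the gene's start in RefSeq on GRCm38.p6, read along the gene: C8a at chr4:104876399-104876648 (minus strand), C8b at chr4:104766067-104766316 (plus), Fga at chr3:83025903-83026152 (plus) and Fgb at chr3:83049864-83050113 (minus). Capitals mark matches on either strand to the core letters of the HNF1 site (GTTAAT), HNF1 being a hepatocyte transcription factor, and to a C/EBP site (TTGCNNAA), C/EBP being a family that includes Cebpa.
C8a: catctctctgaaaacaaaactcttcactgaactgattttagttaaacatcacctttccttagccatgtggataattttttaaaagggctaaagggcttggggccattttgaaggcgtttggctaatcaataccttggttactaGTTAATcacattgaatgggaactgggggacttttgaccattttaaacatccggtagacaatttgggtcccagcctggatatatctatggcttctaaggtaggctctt
C8b: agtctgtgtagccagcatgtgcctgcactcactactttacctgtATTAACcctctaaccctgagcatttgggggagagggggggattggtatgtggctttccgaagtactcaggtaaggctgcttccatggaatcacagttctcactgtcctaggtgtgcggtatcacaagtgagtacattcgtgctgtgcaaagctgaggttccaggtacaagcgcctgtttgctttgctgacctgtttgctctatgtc
Fga: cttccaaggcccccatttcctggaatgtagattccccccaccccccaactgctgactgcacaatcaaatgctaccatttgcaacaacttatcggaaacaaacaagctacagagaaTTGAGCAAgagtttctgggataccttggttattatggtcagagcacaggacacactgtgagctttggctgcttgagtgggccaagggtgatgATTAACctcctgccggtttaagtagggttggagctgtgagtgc
Fgb: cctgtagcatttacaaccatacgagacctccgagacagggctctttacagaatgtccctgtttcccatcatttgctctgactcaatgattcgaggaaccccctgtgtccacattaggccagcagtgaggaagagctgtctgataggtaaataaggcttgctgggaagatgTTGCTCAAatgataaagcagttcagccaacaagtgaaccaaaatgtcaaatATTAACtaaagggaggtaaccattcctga

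All 4 promoters held an HNF1 core, at position -107 in C8a, -206 in C8b, -43 in Fga and -29 in Fgb, counted to the gene's start. Fga and Fgb also held a C/EBP match, which C8a and C8b did not. The window of Fgg, the third fibrinogen gene, held neither an HNF1 core nor a C/EBP match. Promoters were matched for 27 of the 34 members; those of C2, Cfb, Cfi, Masp1, Proc, Kng1 and Plg were not used here. An HNF1 core was in 8 of the 27 (29.6%) against 6.52% of 27025 promoters of all genes, and it was in 4 of the 13 members that fell and 4 of the 14 that did not pass. A C/EBP match was in 6 (22.2%) against 9.55%, namely in C9, F9, F11 and Klkb1 of those that fell and in Fga and Fgb of the others. A STAT3 match (TTCNNNGAA) was in 6 (22.2%) against 7.18%, 3 on each side. The HNF4 core (CAAAGTCC) was in 0 against 1.22%, a TATAAA on the gene's strand in 1 (3.70%) against 8.12%, and a CCAAT on either strand in 6 (22.2%) against 34.5%. No 2 of these matches overlapped in a member's window, and a match is a run of letters, not a measured site.

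Transcription factor genes of hepatocytes were read from the same arrays. Of 18 measured, 3 fell and 0 rose, against 9.81% and 10.3% of all genes. Esr1, the oestrogen receptor, fell from 9.48 ± 0.25 to 7.26 ± 0.90 (adjusted p = 0.00479), Nr1h4, the bile acid receptor FXR, from 9.67 ± 0.20 to 8.72 ± 0.44 (adjusted p = 0.00977), and Cebpa, which drives many hepatocyte genes, from 11.48 ± 0.17 to 10.57 ± 0.52 (adjusted p = 0.0215). Hnf4a, a main regulator of hepatocyte identity, was at 11.90 ± 0.23 and 11.80 ± 0.21 (adjusted p = 0.547).

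Other genes of the complement system moved in both directions, with 8 of 22 higher and 5 lower, against 10.3% and 9.81% of all genes. The higher ones included complement receptor chains of myeloid cells: C3ar1, the receptor of C3a (log2 fold change 1.75), and Itgam (1.62) and Itgb2 (1.58), the chains of complement receptor CR3. C1qb, a chain of C1q that macrophages make, was higher by 1.37 (adjusted p = 0.0016). The lower ones included Fcna, a ficolin of the lectin pathway (-2.16), C1s1, the partner protease of C1r (-1.97, adjusted p = 0.0439), Cfhr2, a relative of factor H (-0.92), and Cd59a, a membrane inhibitor of the pore (-0.68).

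Of 29 other genes of coagulation and fibrinolysis 4 rose and 5 fell, against 10.3% and 9.81% of all genes. Those that rose were Anxa2, a subunit of a plasminogen receptor (3.19, adjusted p = 2.38e-05), Plat, the tissue plasminogen activator (3.16, adjusted p = 0.000897), Thbd, for thrombomodulin (1.34, adjusted p = 0.0447), and Plaur, the urokinase receptor (1.27, adjusted p = 0.0358). Plat went from 4.96 ± 0.27 in controls to 8.09 ± 0.90 in tumours without overlap, while Plg, its substrate's gene, fell as given above. The largest falls were of Proz, for protein Z (-1.21), Tfpi2, a serine protease inhibitor (-1.15), Hgfac, a protease related to factor XII (-1.12), and Vkorc1, the enzyme that recycles vitamin K (-0.75, adjusted p = 0.0274).

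Acute phase genes, which the liver raises in inflammation, showed 3 of 25 higher, Lcn2 (5.31), Orm2 (2.01) and Lbp (0.95). Another 3 were lower, Apcs (-1.65), Il6ra (-1.18) and Itih1, from 11.96 ± 0.08 to 10.91 ± 0.39. Over all genes 10.3% were higher and 9.81% lower, so both counts were near the background. Of 17 other plasma protein genes of hepatocytes 3 fell, Amy1 (-2.13), Fetub (-1.39) and Apoh (-0.41), and 0 rose. Alb, for albumin, read 14.65 ± 0.01 and 14.64 ± 0.11 (adjusted p = 0.987), at the top of the scale of the arrays.

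Of 11 hepatocyte markers 0 passed the test, and 10 of them read 9.74 or more on every array, while Ass1 read 5.92 to 8.01. The mean log2 level over the 11 was 12.50 to 13.03 in controls and 12.33 to 12.92 in tumours. The lists for other cells and for proliferation held calls in 7 of 8 cases, where 10.3% of all genes were higher and 9.81% lower. Of 12 Kupffer cell and macrophage markers 5 rose, Cd68, C1qa, C1qb, C1qc and Lyz2, while the resident Kupffer cell markers Clec4f (-2.16), Timd4 (-1.87), Vsig4 (-1.86), Cd5l (-1.28) and Marco (-1.09) had negative log2 fold changes that did not pass. The mean over the 12 was 8.50 to 8.91 in controls and 8.09 to 9.96 in tumours, on both sides of the controls. The highest tumours for this list were 11-month tumour 2 at 9.96 and 14-month tumour 4 at 9.66, which were also among the tumours with the highest C8a, C8b and Klkb1. Of 4 neutrophil markers 3 rose (5.03 to 6.07 and 6.46 to 8.39), of 9 stellate cell and fibroblast markers 4 rose and 1 fell (7.47 to 8.19 and 7.71 to 9.48), and of 9 endothelial markers 3 rose (7.07 to 7.27 and 6.67 to 7.64, on both sides of the controls). Of 6 cholangiocyte and progenitor markers 1 rose (5.60 to 6.01 and 6.23 to 6.99), of 4 platelet markers 1 (5.59 to 6.28 and 5.88 to 8.13), of 4 proliferation markers 1 (4.63 to 6.40 and 5.09 to 9.25) and of 7 T and B cell markers 0 (4.85 to 5.11 and 4.85 to 5.72). No marker is at 0, since RMA gives no zeros. The part of these cells in the values of the 34 genes was not tested, and in bulk RNA fewer hepatocytes and less RNA per hepatocyte cannot be told apart.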

How the data were processed

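The deposited values are log2 levels made by the authors with robust multi-array analysis in Partek software, per the series' design text and the submitters' processing notes; total RNA from frozen samples was turned into biotin-labelled cRNA, per the labels' protocols. No source used here gives the software version or its background settings. The table holds 45101 probe sets, 34945 of which name 1 gene. The probe set with the highest mean over all 13 arrays stood for each of 18193 genes, with no filter on level.

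All arrays entered 1 limma fit (version 3.58.1, R 4.3.3, lmFit and eBayes) with a mean per group. Fold changes with the ages combined weigh 11 and 14 months equally, so they can differ from differences of the printed means. Benjamini-Hochberg adjustment ran over all 18193 genes and calls were made under 0.05. Precision is limited by the 2 to 5 arrays in a group. The fit was also run on simulated data, with normal noise that was independent between genes and had 1 spread per gene in all groups. In the real data the spread could differ between groups, as for C8a, with an SD of 0.09 in controls and 2.55 in tumours. That run therefore does not show how reliable the calls are here.

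The members and lists were chosen with earlier results of these data known. All measured members are named, and of other lists up to 4 rises and 4 falls past the threshold with the ages combined, with Alb and Hnf4a in any case. Replicates were numbered in sample order. The alternatives tried were array weights, probe sets of a gene averaged, a repeated quantile normalisation, arrays set to 1 common median, a trended and robust eBayes, 14-month tumours 1 and 2 averaged (their titles carry no number), each array left out, both nearly identical controls left out, only arrays whose titles carry a number, no age term, genes above the median level, an adjusted p under 0.01, and only the arrays compared. The title of 14-month control 3 carries no number either, so the setting with numbered arrays leaves it out too. The fit over all probe sets was added after the data were seen. Promoters came from RefSeq and were matched by symbol. Tables and figures used matplotlib 3.10.9, numpy 2.4.6, pandas 2.3.3 and Python 3.11.15.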

Additional observations from a re-analysis of the deposited data

Results flagged for a closer look

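The group of 5 tumours at 14 months was the only group large enough for this comparison. In it 4 of the 34 genes had 1 array far from the other 4 by Dixon's criterion. Independent normal values meet this in about 1 in 20 groups, but genes on the same arrays are not independent. The share of all genes that met it was not computed, so the count is not shown to be particular to the 34 genes. Of these, 3 stood out upward in the fourth tumour: Klkb1 at 10.04, where the others lay between 7.28 and 7.86, Mbl1 at 11.26, where the others lay between 9.67 and 10.09, and C8g at 13.02, where the others lay between 11.67 and 12.03. Serpind1 stood out downward in the third tumour, at 11.54, where the others lay between 11.88 and 11.97.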

How the results depend on the processing

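With both nearly identical controls left out, the lower calls were 3 for complement and 1 for coagulation with the ages combined, 0 for complement at 11 months, and 3 and 1 at 14 months. With only arrays whose titles carry a number they were 3 and 5, 0 for complement at 11 months, and 1 and 0 at 14 months. At an adjusted p under 0.01 they were 4 and 5, 0 for complement at 11 months, and 3 and 1 at 14 months. Array weights gave 11 for complement with the ages combined and at 14 months, and 1 for coagulation at 11 months. Arrays shifted to 1 median gave 11 and 13 with the ages combined, but this also moved the median of all genes from -0.05 to -0.18. Averaging 14-month tumours 1 and 2 gave 4 for complement at 14 months, and fitting only the arrays compared gave 0 for it at 11 months. Averaging the probe sets of a gene gave 1 complement gene higher, Masp1, whose value turned to 0.75; Fgb turned to 0.01 with quantile normalisation repeated. With 1 array left out the lower calls ranged, with the ages combined, from 5 to 11 for complement and from 5 to 11 for coagulation; at 11 months from 0 to 4 and from 0 to 2; and at 14 months from 3 to 10 and from 2 to 9. Leaving out an 11-month control leaves 1, assumed to vary like the other groups. Higher calls stayed at 0 in all other settings. With the ages combined C6, C9, F9 and Hc passed in every setting that gives such a value; at 14 months with only numbered arrays C9 alone passed. Of 850 values for single genes under the alternatives, 41 lost a call, 36 gained one and 2 changed sign. No paired analysis was possible because the labels give no replicate numbers shared between groups.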
